A study of Mus musculus with 11 samples.

Results

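The transcription factors of the oral, tooth and palate fields were examined as 8 genes chosen by symbol, *Pitx1*, *Barx1*, *Lhx6*, *Lhx8*, *Isl1*, *Osr1*, *Osr2* and *Tbx22*, out of 38561 genes counted. All 8 passed the filter on low counts, which left 17317 genes to be tested. They were measured by RNA sequencing of facial processes, the paired outgrowths that build the jaws and the midface, dissected from mouse embryos at embryonic day 10.5. The mandibular and maxillary processes of the first branchial arch and the nasal processes were pooled for each library, so a level is an average over regions in which these genes have different territories. Of the 11 libraries, 2 were labelled wild type (wt), 3 homozygous mutant for *Rspo2* (Rspo2KO), 3 homozygous mutant for *Wnt9b* (Wnt9bKO) and 3 homozygous mutant for both genes (DKO), all of a strain given as Mixed. Both mutations are germline alleles, carried by every cell of the embryo. *Wnt9b* encodes a WNT ligand of the facial ectoderm, *Rspo2* a secreted protein that strengthens WNT signaling at the receptor, and the comparisons ask how the loss of either or both changed gene expression in the face.

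In the early first arch, FGF and BMP signals from the oral ectoderm set up nested territories of transcription factors in the neural crest mesenchyme below. *Lhx6* and *Lhx8*, which encode LIM homeodomain proteins, mark the oral side of the arch. *Barx1* marks the proximal part, from which molars form, and *Pitx1* is expressed in oral ectoderm and mandibular mesenchyme. *Isl1* is active in the mandibular epithelium and, outside the oral field, in cranial ganglia. *Osr1* and *Osr2* encode odd-skipped related zinc finger proteins, of which *Osr2* patterns the palatal shelves and restricts the tooth row, and *Tbx22* encodes a T-box repressor whose human counterpart is mutated in X-linked cleft palate.

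The libraries held 11136166 to 18017344 counts, and levels are given in CPM, which divides counts by the scaled total of the library. *Rspo2* lay at 14.8 and 16.0 CPM in wt and at 4.74 to 6.59 CPM in Rspo2KO. The library labelled Wnt9bKO 2 held 2.86 CPM, against 18.1 and 22.8 CPM in the other Wnt9bKO libraries, and the library labelled DKO 3 held 15.5 CPM, against 3.67 and 4.17 CPM in the other DKO libraries. *Rspo2* in these 2 libraries therefore went against their labels, and values without both of them are also given below for each of the 8 genes and for the counts, medians and ranges. *Xist*, the sign of sex, lay at 1.85 CPM in Wnt9bKO 2 and 1470 CPM in DKO 3, near the other libraries of their labels. *Ddx3y*, a Y-linked gene named after its value was seen, lay at 4.43 CPM in DKO 3 and at 0.0587 and 0.125 CPM in DKO 1 and 2. *Wnt9b* lay at 10.8 and 13.4 CPM in wt and at 16.2 to 23.3 CPM in Wnt9bKO, so its counts give no check of the *Wnt9b* labels. Summed small nuclear RNA genes lay at 352 to 420 CPM in wt and Rspo2KO and at 70.1 to 82.7 CPM in Wnt9bKO and DKO. This difference in library make-up cannot be told apart from the effect of losing *Wnt9b*. Markers of facial mesenchyme, at 1970 to 2930 CPM in sum, and of surface epithelium, at 262 to 315 CPM, were present in every library, and all 10 genes of each list were detected. Of the mesenchyme markers, 2 were called higher in Wnt9bKO, and 2 higher and 1 lower in DKO. Of the epithelium markers, 1 was called lower in Wnt9bKO and 1 in DKO. Over all 17317 genes tested, 32.8% were called in Wnt9bKO and 27.5% in DKO against wt, in either direction. Heart and outflow tract markers lay at 83.8 CPM in wt 1 and at 28.0 to 37.7 CPM in all other libraries. Of the 6 heart markers tested, 4 were called lower in Wnt9bKO, where 2763 of 17317 genes were called lower. In DKO 4 were called lower, where 2276 of 17317 genes were, and 1 was called higher. The part of heart and outflow tract cells in the differences from wt was not tested.

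Nothing in the labels says whether libraries of one genotype came from separate embryos or pools. The p-values therefore set a difference against the spread between these libraries, estimated over all genotypes together. In bulk tissue, a smaller number of cells that express a gene and less RNA per cell cannot be told apart.

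Promoter sequences of 5 of the 8 genes matched RefSeq entries on GRCm38.p6, and 4 are shown, for the 2 genes that fell in DKO (*Barx1* and *Lhx8*) and for *Lhx6* and *Isl1*, the other LIM homeobox genes of the set, for which no change was called. Each runs 5′ to 3′ on the strand of the gene, from 250 bases before the RefSeq start, for 200 bases, except that *Lhx8* is cut to 151 bases where the GENCODE gene begins. Capitals mark GGGCGG (a GC box) or TAATCC (a motif bound by bicoid-type homeodomain proteins such as PITX factors), on either strand. The windows are chr13:48662786-48662985 on the plus strand for *Barx1*, and on the minus strand chr3:154330660-154330810 for *Lhx8*, chr2:36105459-36105658 for *Lhx6*, the most upstream of its 3 RefSeq starts, and chr13:116309739-116309938 for *Isl1*.
Barx1: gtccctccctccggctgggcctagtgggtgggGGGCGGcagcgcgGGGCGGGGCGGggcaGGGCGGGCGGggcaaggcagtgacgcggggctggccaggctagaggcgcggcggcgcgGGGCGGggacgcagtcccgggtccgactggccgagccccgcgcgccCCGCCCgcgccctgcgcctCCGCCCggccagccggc
Lhx8: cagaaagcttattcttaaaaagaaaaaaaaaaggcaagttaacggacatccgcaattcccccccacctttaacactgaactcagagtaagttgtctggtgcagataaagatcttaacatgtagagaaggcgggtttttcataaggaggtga
Lhx6: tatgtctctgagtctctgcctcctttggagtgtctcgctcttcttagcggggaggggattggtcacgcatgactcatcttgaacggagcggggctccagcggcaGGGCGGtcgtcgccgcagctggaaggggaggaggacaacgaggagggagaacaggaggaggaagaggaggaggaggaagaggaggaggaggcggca
Isl1: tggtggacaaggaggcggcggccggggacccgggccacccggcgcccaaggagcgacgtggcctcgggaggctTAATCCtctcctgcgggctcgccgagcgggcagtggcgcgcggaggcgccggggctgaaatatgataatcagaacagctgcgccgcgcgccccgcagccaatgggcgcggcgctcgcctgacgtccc

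The sequences of the 2 genes that fell did not resemble each other in base composition. The *Barx1* window held 85.0% G and C, 30 CpG and 8 matches to GGGCGG, some of them overlapping. The *Lhx8* window of 200 bases held 44.5% G and C, 3 CpG and no match. The median of 32851 RefSeq promoter windows was 51.5% G and C with 4 CpG, and GGGCGG was present in 24.6% of them. *Lhx6* had 1 GGGCGG and 62.0% G and C, and *Isl1* had 1 TAATCC, a motif of 5.22% of all windows, and 73.5% G and C. TCF/LEF motifs, spelled CTTTGAA or CTTTGAT or CTTTGTA or CTTTGTT on either strand, occurred in 12.4% of all windows and, among the matched genes, in 1 of the 3 *Tbx22* windows. The homeodomain core TAATTA, present in 4.19% of all windows, the T-box site GGTGTGA, in 2.71%, and the TATA box TATAAA, in 9.14%, occurred in none of the 9 windows of the matched genes.

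In wt, the genes ranked by level per kilobase of exon with *Barx1* first, at 32.2 and 39.5 CPM per kb. *Lhx8* followed at 16.2 and 16.8 CPM per kb. *Isl1*, at 12.9 and 13.3 CPM per kb, and *Pitx1*, at 11.7 and 13.2 CPM per kb, overlapped, so their order is not settled. A second tier held *Osr1* at 2.33 and 3.45 CPM per kb and *Lhx6* at 2.54 and 2.66 CPM per kb, which overlapped, and *Tbx22* at 1.85 and 2.30 CPM per kb. *Osr2*, the palatal shelf gene, was lowest at 0.584 and 0.592 CPM per kb. With 26 to 263 counts per library for *Osr1* and 6 to 62 for *Osr2*, the zinc finger genes were the least firmly measured.

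*Barx1* and *Lhx8* fell in DKO, and no other of the 8 genes passed the test in any comparison. A gene was called where the p of edgeR's quasi-likelihood test, adjusted by Benjamini-Hochberg over all 17317 genes, was below 0.05. In DKO against wt 2 of 8 were called, both lower, where 27.5% of all genes were called and 13.1% were called lower. In Wnt9bKO against wt 0 of 8 were called, where 32.8% of all genes were, and 2 of 8 had an unadjusted p below 0.05. In Rspo2KO against wt 0 of 8 were called against a background of 0.0346%, and 3 of 8 had an unadjusted p below 0.05. The share called under DKO was close to that of all genes, and under Wnt9bKO it was below it. The Wnt9bKO count moved with each library of that genotype. It was 4 of 8 without Wnt9bKO 1 (*Pitx1*, *Barx1*, *Lhx8* and *Isl1*, all lower), where 5616 of 17105 genes were called. Without the library labelled Wnt9bKO 2 it was 1 of 8 (*Lhx6*, higher), where 5085 of 17185 genes were. Without Wnt9bKO 3 it was 1 of 8 (*Isl1*, lower), where 4739 of 17189 genes were. The DKO count was 3 of 8 without the libraries labelled Wnt9bKO 2 and DKO 3, with *Pitx1* added, where 25.6% of all genes were called. *Lhx6* was then called in Wnt9bKO, where 29.7% of all genes were. The DKO count was 0 of 8 without wt 1, wt 2, DKO 1 or DKO 2. Over all genes, the DKO calls were then 2267 of 17913, 2587 of 17949, 3290 of 17224 and 3624 of 17259. With all libraries they were 4760 of 17317.

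Between the mutants, 0 of 8 were called in DKO against Wnt9bKO, where 0.121% of all genes were called, and in DKO against Rspo2KO, where 18.2% were. In each of these comparisons 1 of 8 had an unadjusted p below 0.05. The interaction, which asks whether the DKO difference departs from the sum of both single mutant differences, called 0 of 8 against 0.0635% of all genes, and 0 of 8 had an unadjusted p below 0.05. *Xist*, the sign of sex, lay at 680 to 1470 CPM in wt and DKO and at 0.821 to 1.94 CPM in Rspo2KO and Wnt9bKO. Sex therefore cannot be told apart from the interaction, or from genotype where a single mutant is compared with wt or DKO. DESeq2 called 1 of 8 in DKO against wt (*Pitx1*) and 0 in each of the other comparisons. Over all genes DESeq2 called 4674 of 17408 in DKO, 5370 of 17408 in Wnt9bKO and 179 of 11537 in Rspo2KO against wt. It called 88 of 18476 in DKO against Wnt9bKO, 3186 of 16340 in DKO against Rspo2KO and 29 of 11003 in the interaction. In DKO against Rspo2KO the count was 1 (*Lhx8*, lower) without Wnt9bKO 1, without the library labelled Wnt9bKO 2, and without both libraries labelled Wnt9bKO 2 and DKO 3. Over all genes, 3737 of 17105, 3316 of 17185 and 2861 of 17135 were called in these settings. The comparisons with wt share the same 2 wt libraries and are given side by side.

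Over the 8 genes, the median log2 fold change was -0.24 in DKO, -0.34 in Rspo2KO and -0.32 in Wnt9bKO against wt, with medians over all genes tested of 0.01, 0.00 and 0.01. Between the mutants it was -0.25 for DKO against Wnt9bKO and 0.04 for DKO against Rspo2KO. With the libraries labelled Wnt9bKO 2 and DKO 3 left out, the medians against wt were -0.71 in DKO, -0.36 in Rspo2KO and -0.02 in Wnt9bKO, and they were -0.79 for DKO against Wnt9bKO and -0.07 for DKO against Rspo2KO.

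The ranges of the libraries give a second view. Mutant and wt libraries did not overlap for 3 of 8 genes in DKO (*Pitx1*, *Barx1* and *Lhx8*, all lower), where 58.1% of all genes did not overlap. In Wnt9bKO this held for 2 of 8 (*Lhx8* and *Isl1*, both lower), against 56.3% of all genes. In Rspo2KO it held for 5 of 8, *Pitx1*, *Barx1*, *Lhx8* and *Osr2* lower and *Tbx22* higher, against 32.9%. DKO and Wnt9bKO libraries did not overlap for 1 of 8 (*Isl1*), against 11.2%, and DKO and Rspo2KO libraries for 1 of 8 (*Lhx8*), against 36.5%. Without the libraries labelled Wnt9bKO 2 and DKO 3, which leaves 2 libraries in each of these genotypes, 6 of 8 did not overlap with wt in DKO, against 68.7% of all genes, and 3 of 8 in Wnt9bKO, against 65.1%. DKO and Wnt9bKO then did not overlap for 7 of 8, all but *Isl1* lower in DKO, against 33.3%, with *Tbx22* the gene that overlapped. DKO and Rspo2KO did not overlap for 2 of 8 (*Barx1* and *Lhx8*, lower), against 48.7%.

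**Figure D1:**
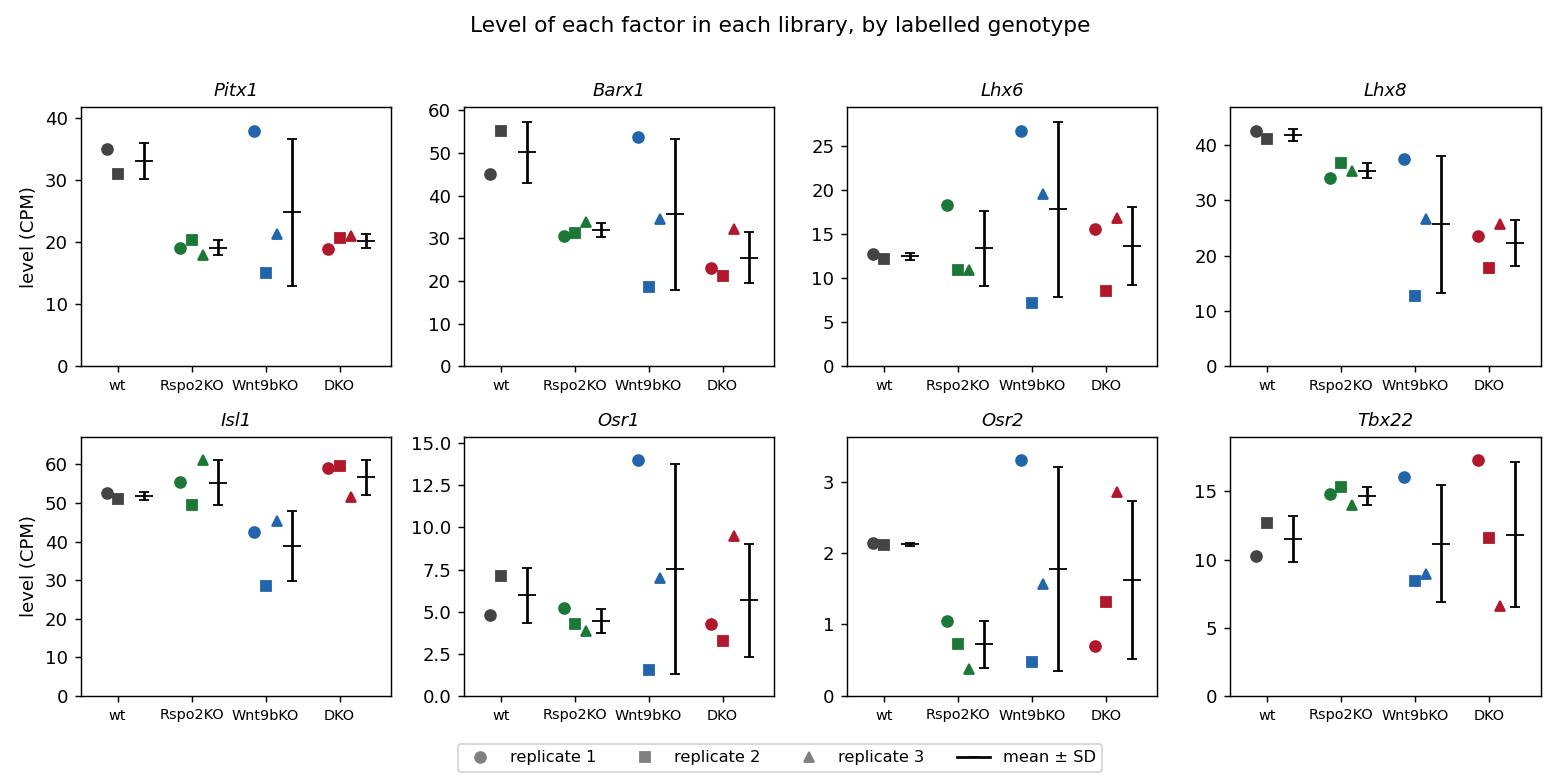
Level in CPM (vertical axes from 0) of each of the 8 factors in each of the 11 libraries, grouped by labelled genotype, with symbols for replicate numbers and a black mark and bar for the mean ± SD of the genotype. *Pitx1*, *Barx1* and *Lhx8* were lower in every DKO and Rspo2KO library than in both wt libraries, and the library labelled Wnt9bKO 2 was the lowest of its genotype in all 8 panels.

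*Pitx1*, a paired-type homeobox gene of the oral ectoderm and mandible, stood at 35.0 and 31.0 CPM in wt. Levels were 19.1, 20.3 and 17.9 CPM in Rspo2KO, 37.9, 15.0 and 21.3 CPM in Wnt9bKO and 18.9, 20.7 and 20.9 CPM in DKO. All Rspo2KO and DKO libraries were lower than both wt libraries and close to one another, while Wnt9bKO spanned the range from below DKO to above wt. The log2 fold change against wt was -0.79 ± 0.26 (SE) in Rspo2KO, with an unadjusted p of 0.00816 and an adjusted p of 0.268. In DKO it was -0.71 ± 0.26 (adjusted p = 0.0517), just short of the threshold, and DESeq2 gave an adjusted p of 0.0236. With only wt and DKO fitted, the DKO change was -0.72 ± 0.11 (adjusted p = 0.000792), and it passed the test in 9 of 22 alternatives. In Wnt9bKO, with all libraries, the log2 fold change was -0.41 ± 0.25 (adjusted p = 0.232). The DKO and Rspo2KO libraries differed by 0.08 (95% interval -0.43 to 0.58). Without the libraries labelled Wnt9bKO 2 and DKO 3, the DKO change was -0.74 ± 0.21 and passed the test (adjusted p = 0.0209), and that of Wnt9bKO was -0.16 ± 0.21 (adjusted p = 0.596).

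*Barx1*, the homeobox gene of the proximal arch and molar mesenchyme, stood at 45.0 and 55.2 CPM in wt. Rspo2KO held 30.5, 31.3 and 33.7 CPM, Wnt9bKO 53.7, 18.5 and 34.6 CPM, and DKO 23.1, 21.1 and 32.2 CPM. Every DKO and every Rspo2KO library lay below both wt libraries, and 2 of the 3 Wnt9bKO libraries did. *Barx1* fell in DKO to 0.507 of the wt level, a log2 fold change of -0.98 ± 0.29 (adjusted p = 0.0233). In Rspo2KO the change was -0.66 ± 0.29, with an unadjusted p of 0.0413 and an adjusted p of 0.390, and in Wnt9bKO -0.49 ± 0.29 (adjusted p = 0.213). The DKO call was lost by leaving out wt 1, wt 2, DKO 1 or DKO 2, with adjusted p of 0.061, 0.162, 0.073 and 0.0775. DESeq2 gave an adjusted p of 0.0501.

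Without the libraries labelled Wnt9bKO 2 and DKO 3, the *Barx1* change in DKO was -1.19 ± 0.18 (adjusted p = 0.000711). Against Rspo2KO it was then -0.52 ± 0.17 (adjusted p = 0.0525) and against Wnt9bKO -1.0 ± 0.18 (adjusted p = 0.069). With all libraries the latter differences were -0.32 ± 0.27 (adjusted p = 0.451) and -0.49 ± 0.27 (adjusted p = 0.935).

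*Lhx8* stood at 42.6 and 41.0 CPM in wt, 34.1, 36.7 and 35.3 CPM in Rspo2KO, 37.5, 12.7 and 26.7 CPM in Wnt9bKO and 23.6, 17.7 and 25.7 CPM in DKO. No mutant library reached the wt range, and all DKO libraries were lower than all Rspo2KO libraries. *Lhx8* fell in DKO to 0.534 of the wt level, a log2 fold change of -0.90 ± 0.29 (adjusted p = 0.0297). In Wnt9bKO the change was -0.70 ± 0.28, with an unadjusted p of 0.0267 and an adjusted p of 0.0719, and in Rspo2KO -0.24 ± 0.28 (adjusted p = 0.779). DKO differed from Rspo2KO by -0.66 ± 0.26 (adjusted p = 0.0936) and from Wnt9bKO by -0.20 (95% interval -0.76 to 0.35). The DKO call was lost without wt 1, wt 2, DKO 1 or DKO 2, with adjusted p of 0.129, 0.107, 0.0599 and 0.099, by DESeq2 (adjusted p = 0.0641) and with an offset on GC content and gene length (adjusted p = 0.0501).

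With the libraries labelled Wnt9bKO 2 and DKO 3 left out, *Lhx8* in DKO changed by -1.02 ± 0.17 against wt (adjusted p = 0.00125) and by -0.77 ± 0.16 against Rspo2KO (adjusted p = 0.00609). Its change in Wnt9bKO was then -0.38 ± 0.17 (adjusted p = 0.104). *Lhx8* is also a gene of the ventral forebrain. Of 10 forebrain and eye markers, 7 were called higher in DKO and 9 in Wnt9bKO. Of all 17317 genes tested, 4760 were called in DKO, 2276 of them lower, and 5674 in Wnt9bKO, 2763 of them lower. The markers summed to 124 and 143 CPM in wt, 144 to 187 CPM in Rspo2KO, 181 to 353 CPM in Wnt9bKO and 197 to 257 CPM in DKO, and no marker was at 0. This list was highest in the library labelled Wnt9bKO 2, where *Lhx8* was lowest, and its part in the *Lhx8* difference was not tested.

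*Lhx6*, the LIM homeobox partner of *Lhx8* in the oral mesenchyme, stood at 12.8 and 12.2 CPM in wt. Rspo2KO held 18.3, 11 and 10.9 CPM, Wnt9bKO 26.8, 7.15 and 19.6 CPM, and DKO 15.6, 8.59 and 16.9 CPM. Each mutant genotype had libraries above and below the wt range. Log2 fold changes against wt were 0.10 ± 0.42 in Rspo2KO, 0.52 ± 0.41 in Wnt9bKO and 0.14 ± 0.42 in DKO, with adjusted p of 0.957, 0.356 and 0.838. The 95% interval of the DKO change ran from -0.75 to 1.03. After the libraries labelled Wnt9bKO 2 and DKO 3 were left out, *Lhx6* rose in Wnt9bKO by 0.89 ± 0.29 (adjusted p = 0.0319), and the DKO value was -0.04 ± 0.29.

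*Isl1*, a LIM homeobox gene of the mandibular epithelium and of cranial sensory and motor neurons, spanned 28.4 to 61.1 CPM. It stood at 52.5 and 51.1 CPM in wt, 55.4, 49.4 and 61.1 CPM in Rspo2KO, 42.6, 28.4 and 45.3 CPM in Wnt9bKO and 59.0, 59.6 and 51.5 CPM in DKO. All Wnt9bKO libraries lay below every other library, and the DKO libraries lay within or above the wt range. The change in Wnt9bKO was -0.42 ± 0.16, with an unadjusted p of 0.0226 and an adjusted p of 0.0636. DKO exceeded Wnt9bKO by 0.55 ± 0.15, with an unadjusted p of 0.00209 and an adjusted p of 0.312. In Rspo2KO and DKO the changes against wt were 0.09 ± 0.16 and 0.13 ± 0.16 (adjusted p = 0.858 and 0.596).

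Markers of neurons and cranial ganglia were lowest in Wnt9bKO as well. Their sum was 634 and 674 CPM in wt, 716 to 787 CPM in Rspo2KO, 371 to 564 CPM in Wnt9bKO and 661 to 715 CPM in DKO, and no marker was at 0. Of the 10 markers, 3 were called lower in Wnt9bKO, where 2763 of 17317 genes were called lower. In DKO 3 markers were called higher, where 4760 of 17317 genes were called, 2276 of them lower. The part of these markers in the *Isl1* difference was not tested. When the libraries labelled Wnt9bKO 2 and DKO 3 were left out, the Wnt9bKO change of *Isl1* was -0.24 ± 0.12 (adjusted p = 0.16) and the difference between DKO and Wnt9bKO was 0.43 ± 0.12 (adjusted p = 0.433).

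**Figure D2:**
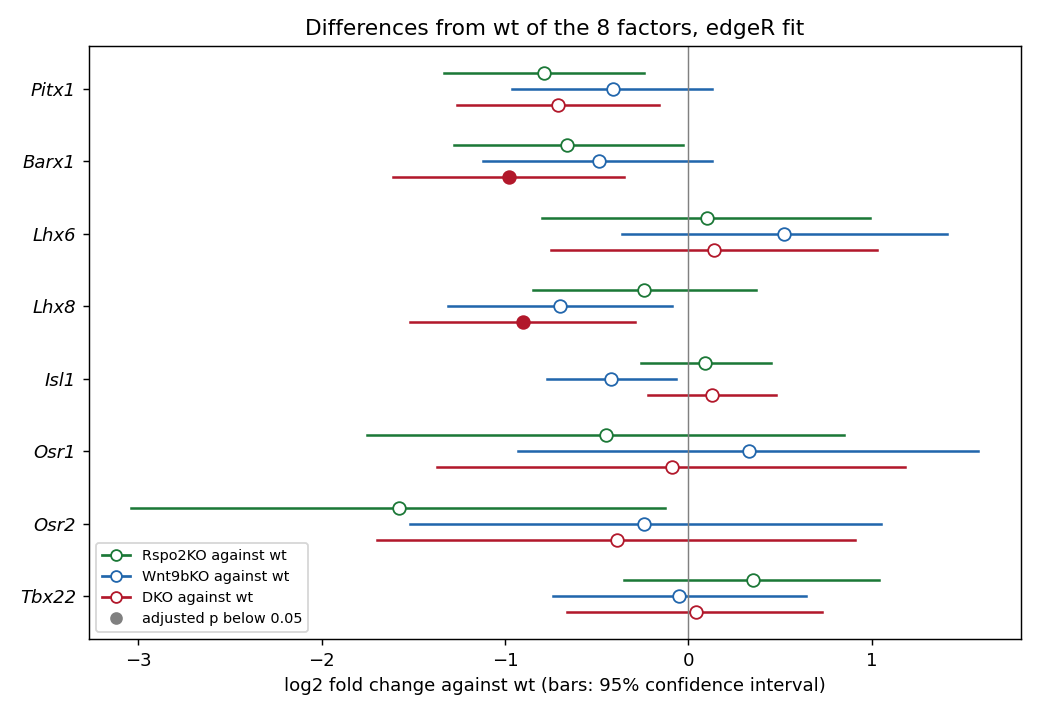
Log2 fold change against wt (horizontal axis) of the 8 factors in Rspo2KO, Wnt9bKO and DKO from the edgeR fit, with bars for the 95% confidence interval and filled points for an adjusted p below 0.05. Filled points occur only for *Barx1* and *Lhx8* in DKO, and the intervals are widest for *Osr1* and *Osr2*.

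Of the palate genes, *Osr1* stood at 4.82 and 7.13 CPM in wt. It held 5.24, 4.25 and 3.85 CPM in Rspo2KO, 14.0, 1.55 and 7.02 CPM in Wnt9bKO and 4.29, 3.24 and 9.47 CPM in DKO. The Wnt9bKO libraries spanned a 9.03-fold range, the widest of any gene of the set within a genotype. Log2 fold changes against wt were -0.45 ± 0.61 in Rspo2KO, 0.33 ± 0.59 in Wnt9bKO and -0.09 ± 0.60 in DKO, with adjusted p of 0.809, 0.706 and 0.926. Without the libraries labelled Wnt9bKO 2 and DKO 3 they were -0.46 ± 0.29, 0.80 ± 0.30 and -0.69 ± 0.33, with adjusted p of 0.534, 0.0606 and 0.138. The change from Wnt9bKO to DKO was then -1.48 ± 0.31 (adjusted p = 0.132), and that from Rspo2KO to DKO -0.23 ± 0.30 (adjusted p = 0.665).

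*Osr2* stood at 2.14 and 2.11 CPM in wt. It held 1.05, 0.729 and 0.379 CPM in Rspo2KO, 3.30, 0.477 and 1.56 CPM in Wnt9bKO and 0.705, 1.31 and 2.85 CPM in DKO. All Rspo2KO libraries were lower than wt, while Wnt9bKO and DKO each had 1 library above wt. The change in Rspo2KO was -1.58 ± 0.68, the largest of the 8 genes in size, with an unadjusted p of 0.0352 and an adjusted p of 0.372. In Wnt9bKO and DKO it was -0.24 ± 0.60 and -0.39 ± 0.61 (adjusted p = 0.794 and 0.673). Without the libraries labelled Wnt9bKO 2 and DKO 3, it was -1.09 ± 0.46 in DKO (adjusted p = 0.0996) and 0.20 ± 0.41 in Wnt9bKO (adjusted p = 0.741). *Osr2* lies on chromosome 15, 7.72 Mb from *Rspo2*, so a linked allele and the *Rspo2* mutation cannot be told apart.

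*Tbx22* stood at 10.3 and 12.7 CPM in wt, 14.8, 15.3 and 14.0 CPM in Rspo2KO, 16.1, 8.41 and 8.94 CPM in Wnt9bKO and 17.3, 11.6 and 6.62 CPM in DKO. Only the Rspo2KO libraries stood apart from wt, above it. The changes against wt were 0.35 ± 0.32, -0.05 ± 0.32 and 0.04 ± 0.32 in Rspo2KO, Wnt9bKO and DKO, with adjusted p of 0.709, 0.924 and 0.950. After leaving out the libraries labelled Wnt9bKO 2 and DKO 3 they were 0.34 ± 0.23, 0.11 ± 0.25 and 0.32 ± 0.25, with adjusted p of 0.563, 0.763 and 0.383. *Tbx22* is X-linked, and the labels do not give the sex of the embryos. *Xist* lay at 680 to 1470 CPM in wt and DKO and at 0.821 to 1.94 CPM in Rspo2KO and Wnt9bKO. The part of sex in the *Tbx22* values was not tested.

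Within Wnt9bKO, the genes ranked the libraries much alike. The library labelled Wnt9bKO 2 was the lowest of its genotype for 8 of 8 genes, and Wnt9bKO 1 the highest for 7 of 8, with *Isl1* the exception. For *Osr1*, the library labelled Wnt9bKO 2 lay 1.78 below and Wnt9bKO 1 lay 1.39 above the mean of their genotype on the log2 scale. The library labelled DKO 3 was the highest of its genotype for 6 of 8 genes, with *Isl1* and *Tbx22* the exceptions, for which it was the lowest. Over genes with a mean of at least 1 CPM, the median ratio of the highest to the lowest Wnt9bKO library was 1.26 and its 90th percentile 1.81. Among the 8 genes, only *Isl1*, at 1.60, was below that percentile.

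The order of the libraries was also compared with that of *Rspo2*. In Wnt9bKO, 7 of 8 genes ranked the libraries as *Rspo2* did, as did 23.5% of all genes tested. In DKO 4 of 8 did (*Barx1*, *Lhx6*, *Lhx8* and *Osr1*), against 17.1% of all genes, and in Rspo2KO 3 of 8 did (*Lhx6*, *Osr1* and *Osr2*), against 16.9%. Facial mesenchyme markers were likewise highest in Wnt9bKO 1, at 2930 CPM, and lowest in the library labelled Wnt9bKO 2, at 1970 CPM. In DKO the order turned, with 2570 and 2640 CPM in DKO 1 and 2 and 2290 CPM in the library labelled DKO 3. The part of the mesenchyme share in the member values was not tested.

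**Figure D3:**
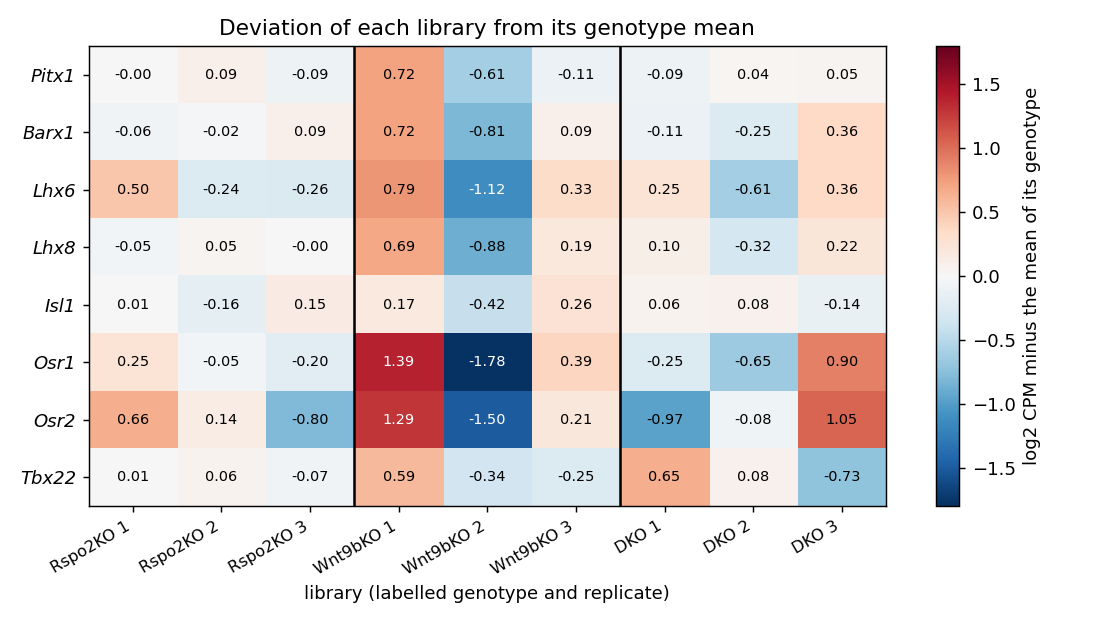
Log2 CPM of each of the 8 factors in each mutant library minus the mean of its genotype, in color and as numbers. The column of the library labelled Wnt9bKO 2 is negative and that of Wnt9bKO 1 positive for all 8 genes, with *Osr1* and *Osr2* deviating most.

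**Figure D4:**
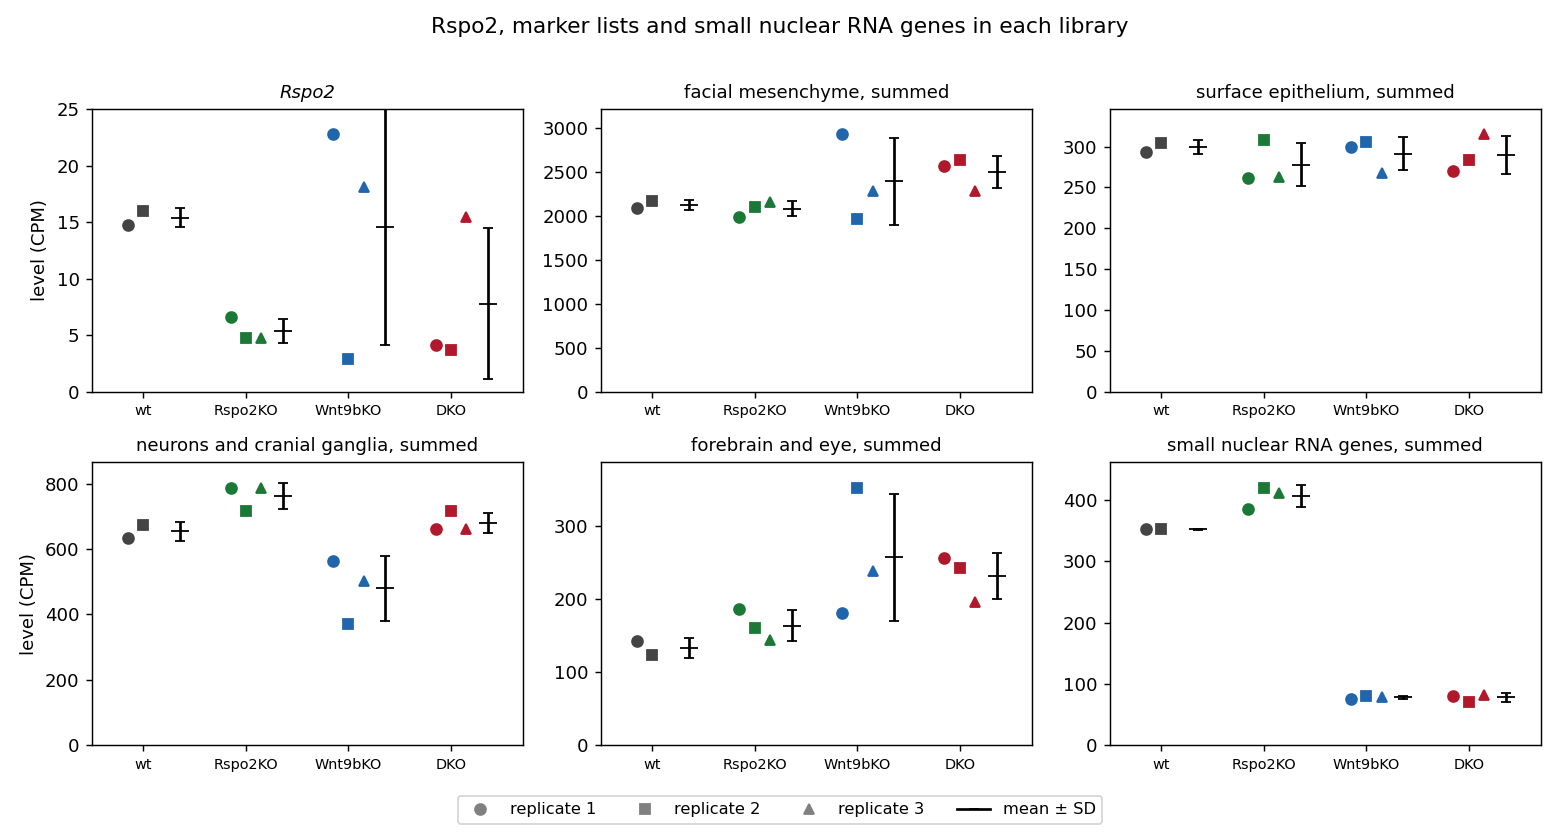
Level in CPM (vertical axes from 0) of *Rspo2*, of 4 summed marker lists and of summed small nuclear RNA genes in each library, with a black mark and bar for the mean ± SD of the genotype. *Rspo2* in the libraries labelled Wnt9bKO 2 and DKO 3 went against their labels, and small nuclear RNA genes separated wt and Rspo2KO from Wnt9bKO and DKO.

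The profiles over the 11 libraries were described by Pearson's r of log2 CPM, with no test, because libraries of one genotype share their group, depth and make-up. Among the 8, the most alike were *Lhx6* and *Osr1* (0.88), *Barx1* and *Lhx8* (0.87) and *Pitx1* and *Barx1* (0.86), and the least alike were *Osr2* and *Tbx22* (-0.25). *Lhx6* and *Lhx8*, which encode related proteins, reached 0.50. Over the 9 libraries other than those labelled Wnt9bKO 2 and DKO 3, these values were 0.83 for *Lhx6* and *Osr1*, 0.83 for *Barx1* and *Lhx8*, 0.82 for *Pitx1* and *Barx1* and 0.24 for *Lhx6* and *Lhx8*, and the least alike were *Isl1* and *Osr1* (-0.85). The nearest genes were taken over all 11 libraries. Of 11269 genes with a mean of at least 5 CPM, the 2 most like *Barx1* were *Tbx2* (0.961), a T-box gene, and *Phldb2* (0.943). For *Lhx8* they were *Tmem59l* (0.964) and *Serpine2* (0.944), and for *Pitx1* *Lrfn4* (0.937) and *Etv4* (0.936), the latter an ETS gene of the FGF response. *Lhx6* was most like *Gata2* (0.913) and *Mpped2* (0.907), and *Isl1* most like *Abca9* (0.952). The 2 most like *Osr2* were *Wnt6* (0.934), a WNT ligand, and *Axin2* (0.905), a negative feedback gene of WNT signaling. *Osr1* was most like the imprinted growth factor gene *Igf2* (0.929) and *Crybg1* (0.925), and *Tbx22* most like *Sned1* (0.892) and *Cpt1c* (0.885).

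Other genes of the oral and tooth field that passed the test with all libraries were higher. Of 22 listed, 20 were tested, and 3 were called in Wnt9bKO against wt, all higher, which is 15.0% of those tested against 32.8% of all genes. Among them were *Gli3* and *Gli2*, transcription factors of the hedgehog pathway. *Gli3* rose by 0.94 on the log2 scale (adjusted p = 0.00374), from 107 CPM in wt to 206 CPM in Wnt9bKO. *Gli2* rose by 0.86 (adjusted p = 0.012). In DKO 2 of 20 were called, both higher, where 27.5% of all genes were called, among them *Gli3* by 0.80 (adjusted p = 0.0113).

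The counts of this list were 0 of 20 in Rspo2KO against wt, in DKO against Wnt9bKO and in the interaction, and its DKO against Rspo2KO count is not reported here. The DKO count was 0 without wt 1 and 1 without wt 2, where 2267 of 17913 and 2587 of 17949 genes were called. The Wnt9bKO count was 1 without wt 1, 5 without Rspo2KO 1 and 7 without the library labelled Wnt9bKO 2. Over all genes, the Wnt9bKO calls were then 3148 of 17913, 6094 of 17209 and 5085 of 17185. Without Wnt9bKO 1 the DKO count was 4, where 5422 of 17105 genes were called. Without the libraries labelled Wnt9bKO 2 and DKO 3, 6 of 20 were called in Wnt9bKO, all higher, where 29.7% of all genes were called, and 4 of 20 in DKO, where 25.6% were, with *Msx1* and *Msx2*, homeobox genes named after their values were seen, added as lower, and *Msx1* was then called lower in DKO against Wnt9bKO. With all libraries, *Msx1* changed in DKO by -0.9 ± 0.36 (adjusted p = 0.0762) and *Msx2* by -0.29 ± 0.33 (adjusted p = 0.545). In Rspo2KO *Msx1* changed by -0.9 ± 0.36 (adjusted p = 0.338). The median log2 fold change of the list was 0.36 in Wnt9bKO, 0.32 in DKO and 0.13 in Rspo2KO against wt.

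Of 22 palate field genes, all tested, 4 were called higher and 1 lower in Wnt9bKO, and 3 higher and 2 lower in DKO, each 22.7% of the list, against 32.8% and 27.5% of all genes. *Grhl3*, an epithelial transcription factor needed for palate closure, rose by 1.50 in Wnt9bKO (adjusted p = 0.00113) and by 1.49 in DKO (adjusted p = 0.00161), from 3.45 CPM in wt to 9.69 and 9.61 CPM. *Mn1*, a transcriptional regulator of palatal bone and shelf growth, rose by 0.92 and 0.87 (adjusted p = 0.000675 and 0.00123). *Foxe1*, a forkhead gene of oral and thyroid epithelium, rose by 1.20 and 1.0 (adjusted p = 0.00413 and 0.0155). *Prdm16*, named after its value was seen, was the other gene called higher in Wnt9bKO.

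*Foxf1*, a forkhead gene of hedgehog-responsive oral mesenchyme, fell by 0.75 in Wnt9bKO (adjusted p = 0.00493) and by 1.24 in DKO (adjusted p = 0.000228), from 24.4 CPM in wt to 14.5 and 10.3 CPM. In Rspo2KO it also stood at 14.5 CPM, and its change of -0.75 ± 0.18 was the same as in Wnt9bKO but not called (adjusted p = 0.206). *Tbx2*, the gene whose profile was most like that of *Barx1*, fell by 0.86 in DKO (adjusted p = 0.0454). In DKO against Rspo2KO, 4 were called higher and 1 lower, which is 22.7% against 18.2% of all genes. *Grhl3* rose by 1.23 (adjusted p = 0.00248), *Efnb1*, an ephrin gene of palatal shelves, by 0.59 (adjusted p = 0.00535), *Mn1* by 0.57 (adjusted p = 0.0099) and *Foxe1* by 0.98 (adjusted p = 0.0109). *Foxf1* was called lower there, and is named for this comparison after its value was seen. None of the 22 was called in Rspo2KO against wt, in DKO against Wnt9bKO or in the interaction, and DESeq2 called 1 in Rspo2KO (*Foxf1*, lower). The DKO count against wt was 3 without wt 1 and without wt 2, where 2267 of 17913 and 2587 of 17949 genes were called. The Wnt9bKO count was 9 without the library labelled Wnt9bKO 2, where 5085 of 17185 genes were. In DKO against Rspo2KO the count fell to 2 without Rspo2KO 3 and to 3 without Rspo2KO 2 or DKO 1. Over all genes, the calls in that comparison were then 1683 of 17266, 1723 of 17208 and 1859 of 17224. With the libraries labelled Wnt9bKO 2 and DKO 3 left out, 9 were called in Wnt9bKO (40.9% against 29.7% of all genes), 6 in DKO (27.3% against 25.6%), 7 in DKO against Rspo2KO (31.8% against 16.7%) and 1 in DKO against Wnt9bKO (*Tbx3*, lower, named after its value was seen).

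A list of 10 further genes, the LIM domain-binding cofactors and the closest relatives of the 8, was also counted. The genes named from this list were chosen after their values were seen. In DKO, *Lhx2*, *Barx2* and *Ldb2* were called higher and *Ldb1* lower, 4 of 10 where 27.5% of all genes were called, and in Wnt9bKO 3 of 10 were called, where 32.8% were. When the libraries labelled Wnt9bKO 2 and DKO 3 were left out, 2 of 10 were called in DKO (*Lhx2* and *Barx2*), where 25.6% of all genes were, and the 3 in Wnt9bKO were again *Lhx2*, *Lhx1* and *Ldb1*. *Ldb1* encodes the cofactor that LIM homeodomain proteins such as LHX6, LHX8 and ISL1 bind. It fell by 0.37 in DKO (adjusted p = 0.0171) and by 0.40 in Wnt9bKO (adjusted p = 0.0104), from 176 CPM in wt to 136 and 133 CPM. In Rspo2KO *Ldb1* stood at 136 CPM, a change of -0.37 ± 0.11 that was of the same size as in DKO but not called (adjusted p = 0.221). *Barx2* rose by 0.94 in DKO (adjusted p = 0.0361), opposite in sign to *Barx1*. *Lhx2*, a forebrain and eye field gene, rose by 1.13 in Wnt9bKO and 0.84 in DKO (adjusted p = 0.00316 and 0.0202), and it was called higher in DKO against Rspo2KO. *Lhx1* fell by 1.46 in Wnt9bKO (adjusted p = 0.000567) and was called higher in DKO against Wnt9bKO, a call that was lost without the libraries labelled Wnt9bKO 2 and DKO 3.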

How the data were processed

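Per the labels and the paper's methods, the authors trimmed reads with cutadapt, aligned them to GRCm38 with STAR, assigned them with HTSeq and analysed them with DESeq2, with versions not given in the sources used here. The deposited values are raw counts per Ensembl gene, without lines for unassigned reads, and the strand setting is not stated. *Pitx1*, *Lhx6* and *Osr1* overlap annotated noncoding genes that are not among the genes counted. The methods name 3 samples per genotype, and 2 wt libraries were analysed here. Genotypes were taken from the labels.

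Counts were scaled by TMM factors and filtered with filterByExpr, and all libraries were fitted together with edgeR 4.0.16 (glmQLFit and glmQLFTest, R 4.3.3, limma 3.58.1). The p-values were adjusted by Benjamini-Hochberg over all genes tested. The design assumed these units, and 6 comparisons were made. Positions and exon lengths come from the GENCODE annotation of GRCm38. Log2 CPM for profiles used a prior count of 2. The fit was tried on simulated counts with changes planted in DKO only. The simulation held no library that went against its label and no difference in sex or library make-up. It therefore does not check the calls for these features of the data. Replicates of a genotype differed by more than sampling noise. Python 3.11.15, numpy 2.4.6, pandas 2.3.3 and matplotlib 3.10.9 were used for tables and plots.

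The 8 genes, the gene lists and the tests were chosen with earlier results of these data known. Named were the 8 genes, per comparison up to 4 called genes of each field list with the smallest p, the 2 genes most like each of the 8, *Rspo2*, *Wnt9b* and *Xist*. Of the genes this rule names, 1 of the oral and tooth list and 1 of similar profile are not reported here. Alternatives were DESeq2 1.42.0, RLE or upper-quartile factors, no filter, a minimum of 10 counts per library, a fit of the compared genotypes alone, replicate numbers as a block, an offset on GC content and length from loess (span 0.3), also together with the block, autosomal protein-coding genes, each library left out, and both libraries that *Rspo2* counts go against left out. Marker lists of muscle precursors, pharyngeal endoderm and erythroid cells were summed as well, at 37.9 to 58.8, 14.2 to 20.9 and 1740 to 5770 CPM per library. *Gcm2* of the endoderm list was at 0 in every library. No erythroid marker was at 0, and 4 of 8 were called lower in Wnt9bKO and 7 of 8 in DKO. Of 17317 genes tested, 2763 and 2276 were called lower there.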

Additional observations from a re-analysis of the deposited data

How the results depend on the processing

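In DKO against wt, *Barx1* stayed lower in all 22 alternatives and passed the test in 17, *Lhx8* in 16 and *Pitx1* in 9, with log2 fold changes of -1.19 to -0.82, -1.02 to -0.76 and -0.80 to -0.63. DESeq2 called 1 of the 8 (*Pitx1*), and leaving out 1 library at a time gave 0 to 3. In Wnt9bKO against wt, 4 were called with no filter on low counts, where 5830 of 28095 genes were. With the replicate block 2 were called (*Isl1*, *Lhx8*), where 6056 of 17317 genes were. The block and the GC offset gave 2 (*Pitx1*, *Isl1*), where 5958 of 17020 genes were called. Without the libraries labelled Wnt9bKO 2 and DKO 3, called the doubted libraries here, 1 was called (*Lhx6*), where 5086 of 17135 genes were. With 1 library left out 0 to 4 were called, the 4 (*Pitx1*, *Barx1*, *Lhx8*, *Isl1*) without Wnt9bKO 1. With no filter, 3 were called in Rspo2KO against wt, 1 in DKO against Wnt9bKO (*Isl1*) and 2 in DKO against Rspo2KO. Of all 28095 genes, 572, 220 and 3537 were called in these comparisons. In DKO against Rspo2KO 1 (*Lhx8*) was called with only the groups compared, where 3390 of 16174 genes were. Without both doubted libraries 1 was called, where 2861 of 17135 genes were. With 1 library left out 0 to 1 were called, the 1 without Wnt9bKO 1 or without the library labelled Wnt9bKO 2. The cause of these moves was not tested.

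Changes of direction were in values short of the threshold. With the replicate block they were *Osr1* (-0.06) and *Tbx22* (0.06) in Wnt9bKO, *Lhx6* (-0.04) in Rspo2KO and *Lhx6* (-0.03) in DKO. With the block and the GC offset they were *Tbx22* in Wnt9bKO (0.07), *Lhx6* in Rspo2KO (-0.04) and DKO (-0.04), and *Tbx22* in DKO against Wnt9bKO (-0.02). With the offset alone they were *Osr1* (0.11) and *Tbx22* (-0.05) in DKO, and *Lhx8* (-0.02) and *Osr1* (-0.03) in the interaction. Without both doubted libraries they were *Osr2* (0.20) and *Tbx22* (0.11) in Wnt9bKO, *Lhx6* in DKO (-0.04), *Lhx6* (-0.13) and *Osr1* (-0.23) in DKO against Rspo2KO, and *Barx1* (-0.33), *Lhx8* (-0.39) and *Osr1* (-1.02) in the interaction.

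With 1 library left out, directions turned in these ranges. In Wnt9bKO they were -0.50 to 0.83 (*Osr1*), -1.06 to 0.23 (*Osr2*) and -0.42 to 0.14 (*Tbx22*), in Rspo2KO -0.19 to 0.24 (*Lhx6*), and in DKO -0.05 to 0.38 (*Lhx6*), -0.69 to 0.23 (*Osr1*) and -0.34 to 0.32 (*Tbx22*). In DKO against Wnt9bKO they were -0.55 to 0.15 (*Pitx1*), -0.76 to 0.04 (*Lhx6*), -0.52 to 0.18 (*Lhx8*), -1.01 to 0.40 (*Osr1*), -0.85 to 0.67 (*Osr2*) and -0.29 to 0.45 (*Tbx22*). In DKO against Rspo2KO they were -0.13 to 0.33 (*Lhx6*), -0.03 to 0.11 (*Isl1*) and -0.23 to 0.63 (*Osr1*). In the interaction they were -0.15 to 0.59 (*Barx1*), -0.29 to 0.42 (*Lhx8*), -0.55 to 0.85 (*Osr1*) and -0.64 to 0.10 (*Tbx22*).

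Same-numbered libraries of different genotypes correlated at -0.105 to 0.236 over 15 pairs, 3 of them above 0.1. Since not every pair exceeded 0.1 and no label ties the numbers to a litter or day, the numbers were not taken to pair the libraries, although 8 of 11 libraries were most like one of their own number, a hint from the data. Beyond the calls given above the replicate block moved no count of called members by over 1.5 times. DESeq2 gave no adjusted p for *Osr2* in Rspo2KO against wt or for *Osr1* and *Osr2* in the interaction, *Osr2* had no value with at least 10 counts in every library, and *Tbx22* had none among autosomal genes. The interaction was not run with only the groups compared. Of the field lists, 1 to 8 oral and tooth genes and 4 to 9 palate genes were called in Wnt9bKO, and 0 to 6 and 3 to 7 in DKO, over the alternatives. The calls over all genes moved as well, from 3148 of 17913 to 6094 of 17209 in Wnt9bKO. In DKO they ran from 2267 of 17913 to 5719 of 16511. The low counts of *Osr2* limit what its comparisons can show.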
